A study of Kandelia obovata with 24 samples.

Results

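Leaf transcriptomes of the mangrove *Kandelia obovata* were compared between 2 groups of libraries, ABA-100 labelled -4.1 ℃ and ABA-100 labelled 10.2 ℃. The comparison took every library with these labels, 3 in each group and 6 of the 24 libraries of the series. The seedlings grew outdoors north of their natural range and were sampled during a natural frost event. ABA-100 names seedlings assigned to a foliar spray of abscisic acid (ABA) at 100 mg per L, with ethanol and Tween-80 in the solution, and CK names the control seedlings, assigned to no ABA. Leaves labelled 10.2 ℃ were taken before the spray, so that ABA-100 (10.2 ℃) had not yet received ABA, and leaves labelled -4.1 ℃ were taken in the first freezing stage on the following day. Temperature, spray and hour of sampling therefore changed together between these 2 groups as labelled, and their parts in any difference cannot be told apart. The other 6 groups, which serve as reference levels here, are CK at 10.2, -4.1, -5.3 and 9.7 ℃ and ABA-100 at -5.3 and 9.7 ℃. No variety, genotype or mutation is given for any group. The study states biological replicates taken from the same seedlings at each stage, but the labels do not tie a library to a seedling, so that the p-values measure the spread between these libraries. In whole leaves a lower level of a transcript in each cell and fewer cells that carry it cannot be told apart. The label of leaf was not checked against marker genes, because the table of values pairs no unigene with a gene name.

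ABA is the plant hormone that closes stomata and turns on genes that protect leaves from water loss and cold. It binds receptors that inhibit protein phosphatases of a magnesium-dependent class, which releases protein kinases from inhibition, and these kinases then activate transcription factors. Freezing draws water out of cells, disturbs membranes and favours the formation of reactive oxygen species, so that membrane lipids, heme enzymes that remove peroxide and phenolic compounds are all part of what is known of the cold response of leaves.

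The labels of the libraries disagree with the volcano plots that the paper shows, and this bears on every result of this comparison. The volcano plots match this pair to the 2 treatments at -5.3 ℃. In the plot of the 2 treatments at -5.3 ℃, 10 unigene names could be read, and all 10 were differentially expressed between ABA-100 (-4.1 ℃) and ABA-100 (10.2 ℃) as labelled. The 5 names drawn as up-regulated were all lower in the libraries labelled -4.1 ℃, with log2 fold changes of -4.26 to -2.68. The 5 names drawn as down-regulated were all higher there, with log2 fold changes of 1.75 to 3.96. Between the libraries labelled as the 2 treatments at -5.3 ℃, by contrast, 1 of the 10 names was called in the drawn direction, where 1.82% of all unigenes tested were called. The plots were made from these same libraries, so the match shows only that labels and plots disagree, not which of them is right. The library codes pair the groups by first letter, and the 2 groups of each letter differ in the digit that follows it. The 2 groups compared here share the letter C. In the paper, principal component 1 separates temperatures and component 2 separates ABA from CK. Here, as labelled, all CK scores on component 1 were negative, at -119 to -14.7. Those of ABA-100 were 37.6 to 130, except -25.5 in replicate 1 of ABA-100 (9.7 ℃). What this says of the labels was not tested. No library was moved, all groups are written as labelled, and a change between them may not be a change with temperature or with ABA.

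The deposited values are TPM, the usual measure of relative transcript abundance, which correct for transcript length and sum to 999999 to 1000001 in every library, so the number of reads behind a single value is unknown here. Between 25523 and 26057 of the 33344 unigenes of the table had a TPM above 0 in each of the 6 libraries. The 10 most abundant unigenes held 20.3 to 21.4% of the TPM in ABA-100 (10.2 ℃) and 17.9 to 18.0% in ABA-100 (-4.1 ℃), the former including the highest share among all 24 libraries. Pearson's r of log2(TPM + 1) across unigenes, which are not independent replicates, was 0.966 to 0.975 within ABA-100 (10.2 ℃), 0.965 to 0.973 within ABA-100 (-4.1 ℃) and 0.951 to 0.963 between them. In both groups replicate 3 was the library least like the other 2. The same held in every other group except ABA-100 (9.7 ℃), where it was replicate 1. Whether replicates 1 and 2 share a source that replicate 3 does not was not tested. The median SD of a unigene over 3 libraries on the log2 scale was 0.0941 and 0.0932 in the 2 groups, below the 0.106 to 0.151 of the other 6.

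A total of 721 unigenes (3.35% of 21523 tested) were differentially expressed genes (DEGs) between ABA-100 (-4.1 ℃) and ABA-100 (10.2 ℃), of which 450 (2.09%) were up-regulated and 271 (1.26%) down-regulated at -4.1 ℃. DEGs were those with a p of at most 0.05 in limma on log2(TPM + 1), after Benjamini-Hochberg adjustment, whose log2 fold change was above 1 or below -1. At the adjusted p alone 4939 unigenes (22.9%) passed, 3705 of them higher and 1234 lower, while median-of-ratios scaling gave 2392 higher and 1931 lower. Unigenes were tested when at least 3 of the 24 libraries had at least 1 TPM. Adding 1 TPM before taking the logarithm makes the fold change of weakly expressed unigenes smaller than the ratio of their TPM values. Of the DEGs 62.4% were up-regulated. The median log2 fold change over all unigenes tested was 0.08, and with median-of-ratios scaling, which brought this median to 0.003, 376 DEGs were up-regulated and 323 down-regulated. Without the library of each of the 8 groups least like the other 2, there were 784 DEGs, 481 up-regulated and 303 down-regulated.

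Most of these changes were moderate. Beyond a log2 fold change of 2 there were 95 DEGs (0.441% of the unigenes tested), 46 up-regulated and 49 down-regulated. Among the 414 up-regulated DEGs with a TPM above 0 in both groups, the median log2 fold change was 1.29, with quartiles of 1.10 and 1.53. The 241 down-regulated DEGs above 0 in both groups had a median of -1.39, with quartiles of -1.82 and -1.18. The remaining DEGs were listed at 0 in all 3 libraries of one group. There were 36 such up-regulated unigenes, with a mean of 1.06 to 20.9 TPM in ABA-100 (-4.1 ℃), and 30 such down-regulated unigenes, with a mean of 1.33 to 11.01 TPM in ABA-100 (10.2 ℃). Only 2 of the former and 1 of the latter reached 10 TPM in the other group. For 688 of the 721 DEGs the 3 libraries of one group all lay beyond the 3 of the other, as they did for 42.5% of all unigenes tested.

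**Figure D1:**
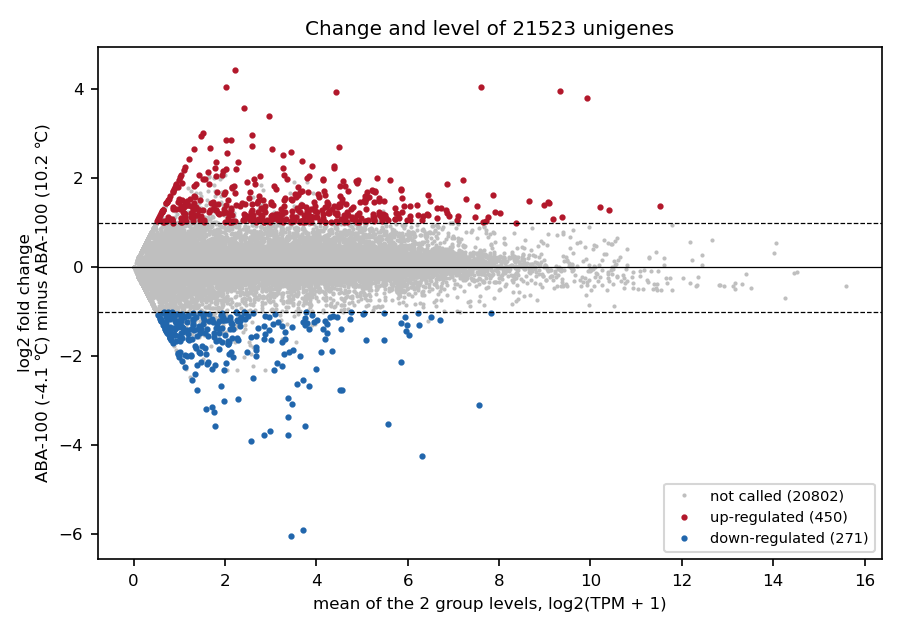
Each point is 1 of the 21523 unigenes tested, with the mean of the 2 group levels in log2(TPM + 1) on the horizontal axis and the log2 fold change, ABA-100 (-4.1 ℃) minus ABA-100 (10.2 ℃), on the vertical axis. Red marks the 450 up-regulated and blue the 271 down-regulated DEGs, dashed lines mark a log2 fold change of 1 in either direction, and few down-regulated DEGs lie at the right, where 5 of them had a mean of 100 TPM or more over the 24 libraries.

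The direction of the calls differed with the level of the unigene. Among the 4539 unigenes with a mean under 1 TPM over the 24 libraries, 66 rose and 67 fell. Among the 6988 with a mean of 1 to under 10 TPM, 202 rose and 147 fell, and this class had the highest share of DEGs of the 4, 4.99%. From 10 to under 100 TPM, 158 of 8822 rose and 52 fell. At 100 TPM or more, 24 of 1174 rose and 5 fell. These counts are of TPM without further scaling. Median-of-ratios scaling brought the up- and down-regulated counts over all DEGs closer together, and its calls were not split by level.

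The up-regulated DEGs held 1.18, 1.19 and 1.13% of the TPM in the 3 libraries of ABA-100 (10.2 ℃) and 3.59, 3.63 and 3.59% in those of ABA-100 (-4.1 ℃). At -4.1 ℃ the 2 most abundant of them together made up 23.3% of this sum on average, and the second of these, the unannotated DN14717_c1_g1, alone made up 10.1% of the sum. The down-regulated DEGs held 0.512, 0.527 and 0.538% at 10.2 ℃ and 0.138, 0.136 and 0.131% at -4.1 ℃. Per unigene, the median of the group mean went from 4.85 to 14.98 TPM over the up-regulated DEGs and from 5.27 to 1.05 TPM over the down-regulated DEGs. These sums and medians describe lists that were selected for this difference.

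Of the unigenes of this table, 12 carry an annotation from the study, which chose them as hubs of 3 co-expression modules built on these libraries. Their directions are therefore not independent evidence. Of the 12 hub unigenes, 6 were up-regulated, 0 were down-regulated and 6 were not called, beside 2.09% and 1.26% of all unigenes tested. In all 12 the 3 libraries of one group lay beyond the 3 of the other, 10 higher and 2 lower at -4.1 ℃, beside 42.5% of all unigenes tested without overlap. The median log2 fold change over the 12 was 1.08, against 0.08 over all unigenes tested. With a pseudocount of 0.1 TPM in place of 1, 11 of the 12 and 962 (4.47%) of all unigenes tested were called, and with 0.5 TPM again 11 of the 12 and 884 (4.11%) of all.

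All 5 hub unigenes of module MEturquoise were up-regulated in ABA-100 (-4.1 ℃), by log2 fold changes of 1.15 to 1.53. DN3958_c0_g1 is annotated as ferrochelatase, the enzyme that inserts iron into protoporphyrin in the last step of heme synthesis, and heme is the cofactor of catalases, peroxidases and cytochromes. It had 24.8, 26.2 and 26.2 TPM in ABA-100 (10.2 ℃) and 73.8, 76.6 and 71.2 TPM in ABA-100 (-4.1 ℃). All 3 libraries at -4.1 ℃ were far above all 3 at 10.2 ℃, and the means were 25.7 ± 0.804 and 73.9 ± 2.74 TPM (SD, n = 3). The log2 fold change of ferrochelatase was 1.49 with a standard error of 0.09 (limma, adjusted p = 6.93e-10).

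The pair of hub unigenes of protein phosphorylation in this module rose together. DN3221_c0_g1, a protein serine/threonine kinase, had 54.7, 54.6 and 51.4 TPM at 10.2 ℃ and 124.9, 118 and 117 TPM at -4.1 ℃. Its log2 fold change was 1.15 ± 0.07 (SE; limma, adjusted p = 2.24e-09). DN477_c0_g1, annotated as a magnesium-dependent protein serine/threonine phosphatase, had 19.5, 18.7 and 18.3 TPM at 10.2 ℃ and 42.3, 44.1 and 44.8 TPM at -4.1 ℃. In neither unigene did the groups overlap. The log2 fold change of the phosphatase was 1.17 ± 0.06 (SE; limma, adjusted p = 2.58e-10). Kinases of this class transfer phosphate to serine or threonine of other proteins and phosphatases remove it. The annotation does not say whether this phosphatase is one of the partners of the ABA receptor.

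DN8005_c0_g2 is annotated to sphingolipid metabolism, which makes a class of lipids of the plasma membrane. It had 11.8, 13.1 and 13.8 TPM at 10.2 ℃ and 39.2, 41.7 and 36.1 TPM at -4.1 ℃. The lowest library at -4.1 ℃ was well above the highest at 10.2 ℃, and the log2 fold change was 1.52 ± 0.13 (SE; limma, adjusted p = 7.92e-08). The assembly placed 2 more unigenes in the same Trinity component, a set of contigs with shared sequence, so reads may have been split between them. Of these, 1 also rose, from a mean of 1.87 to 9.85 TPM (log2 fold change 1.91, limma, adjusted p = 2.49e-06), and the other was not called, at means of 2.51 and 3.13 TPM.

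DN2948_c0_g1 is annotated only by its place in the nucleus. It had 17.9, 19.5 and 18.7 TPM at 10.2 ℃ and 55.9, 56.0 and 55.9 TPM at -4.1 ℃. Its 3 libraries at -4.1 ℃ hardly differed, and its log2 fold change of 1.53 ± 0.12 (SE; limma, adjusted p = 1.79e-08) was the highest among the 12 hub unigenes.

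Of the 4 hub unigenes of module MEbrown, 1 was up-regulated and 3 were not called, with log2 fold changes of 0.69 to 1.13. The up-regulated one, DN7698_c0_g1, is annotated as an anchored component of the plasma membrane. It had 24.2, 25.9 and 23.3 TPM at 10.2 ℃ and 53.9, 55.0 and 54.4 TPM at -4.1 ℃, without overlap. Its log2 fold change was 1.13 ± 0.20 (SE; limma, adjusted p = 0.000357), and 0.99 with quantile normalization, which ends the call. One more unigene of its component stood at 0.86 TPM or less in all 6 libraries.

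The 3 uncalled hub unigenes of MEbrown were each higher in every library labelled -4.1 ℃. DN5170_c1_g1, a DNA-binding regulator of transcription, had 5.35, 5.19 and 5.53 TPM at 10.2 ℃ and 11.7, 11.2 and 10.8 TPM at -4.1 ℃. Its log2 fold change of 0.94 passed the adjusted p (0.0273, limma) and not the fold threshold. DN8109_c0_g1, an integral component of membrane, had 0.58, 0.98 and 1.07 TPM at 10.2 ℃ and 3.08, 2.58 and 2.80 TPM at -4.1 ℃. Here the log2 fold change of 1.03 passed the fold threshold and not the adjusted p (0.0612, limma). DN7864_c0_g1, an NAD(P)H oxidoreductase assigned to the MAPK signalling pathway, had 2.61, 3.16 and 3.05 TPM at 10.2 ℃ and 5.06, 5.08 and 5.94 TPM at -4.1 ℃. It passed neither threshold (log2 fold change 0.69, limma, adjusted p = 0.0729).

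None of the 3 hub unigenes of MEgrey was called, although all 3 separated the groups. DN1524_c0_g1, a regulator of transcription that binds zinc, had 13.2, 13.5 and 13.3 TPM at 10.2 ℃ and 6.89, 6.31 and 5.54 TPM at -4.1 ℃. It was lower in every library at -4.1 ℃, and its log2 fold change of -0.98 lay just inside the fold threshold at an adjusted p of 3.17e-08 (limma). DN3196_c0_g1 is a MAP kinase kinase kinase, which starts a phosphorylation relay from stress sensors to the nucleus. It had 7.75, 7.25 and 8.09 TPM at 10.2 ℃ and 15.6, 15.5 and 17.8 TPM at -4.1 ℃, again without overlap, and its log2 fold change of 0.99 was as close to the threshold (limma, adjusted p = 0.000669). DN13229_c0_g1 is a phenylalanine ammonia-lyase (PAL), the entry enzyme of the phenylpropanoid pathway towards lignin and flavonoids. It had 2.86, 3.96 and 3.21 TPM at 10.2 ℃ and 0.99, 1.19 and 0.88 TPM at -4.1 ℃. The log2 fold change of PAL, -1.10, missed the adjusted p (0.0529, limma), while a fit of the 6 libraries alone gave an adjusted p of 0.00337. The fit of all libraries takes in the spread of PAL in CK (-4.1 ℃), where its libraries had 9.65, 10.4 and 47.5 TPM. With median-of-ratios scaling both lower hub unigenes were called down-regulated, at log2 fold changes of -1.07 for DN1524_c0_g1 and -1.18 for PAL.

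**Figure D2:**
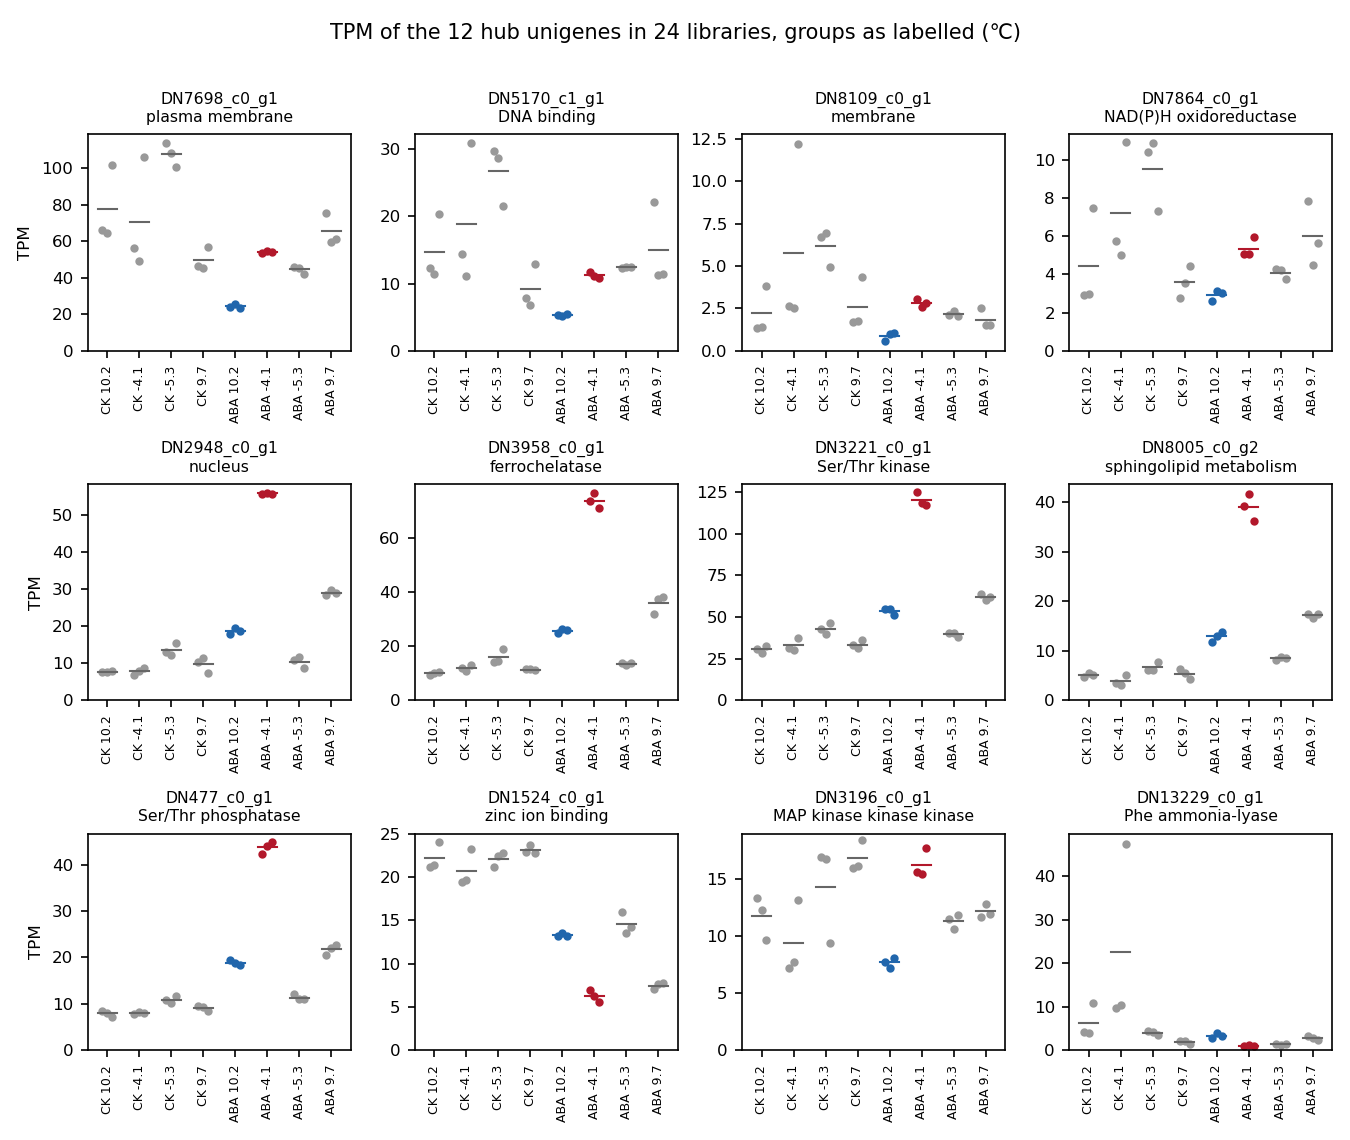
Each panel is 1 of the 12 hub unigenes, with the 8 groups as labelled on the horizontal axis and TPM from 0 on the vertical axis. Points are the 3 libraries of a group and bars their mean, with ABA-100 (10.2 ℃) in blue, ABA-100 (-4.1 ℃) in red and the other groups in grey. In the 5 panels of MEturquoise (DN2948, DN3958, DN3221, DN8005 and DN477) the red points stand above those of all other groups.

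In the 8 groups the MEturquoise hub unigenes shared a pattern, while those of MEbrown and MEgrey followed others. All 5 of MEturquoise had their highest mean in ABA-100 (-4.1 ℃), and ABA-100 (10.2 ℃) was above every CK group. As labelled, neither ABA-100 (10.2 ℃) nor CK (10.2 ℃) had received ABA. The part of the disagreement between labels and volcano plots in this was not tested. Ferrochelatase, for example, averaged 10.1 ± 0.590 TPM in CK (10.2 ℃), 12.02 ± 1.08 in CK (-4.1 ℃), 16.0 ± 2.66 in CK (-5.3 ℃) and 11.4 ± 0.147 in CK (9.7 ℃). In the other ABA-100 groups it averaged 13.6 ± 0.410 TPM at -5.3 ℃ and 35.9 ± 3.37 TPM at 9.7 ℃ (SD, n = 3). All 4 of MEbrown instead had their highest mean in CK (-5.3 ℃). The plasma membrane unigene DN7698_c0_g1 averaged 107.8 ± 6.75 TPM there, 54.4 ± 0.560 TPM in ABA-100 (-4.1 ℃) and 24.4 ± 1.32 TPM in ABA-100 (10.2 ℃). Of the MEgrey hub unigenes, the zinc-binding regulator DN1524_c0_g1 ranged from 19.5 to 24.1 TPM over the 12 CK libraries, above all 6 libraries of this comparison.

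Beside the hub unigenes, 4 unigenes without annotation were named by size. They are the up- and the down-regulated DEG with the largest log2 fold change among those of at least 10 TPM in the higher group, and those with the largest difference in mean TPM, all without overlap between the groups. The values below thus describe unigenes selected for them. DN14717_c1_g1 had 256, 244 and 277 TPM in ABA-100 (10.2 ℃) and 3555, 3681 and 3662 TPM in ABA-100 (-4.1 ℃), the largest gain in TPM. It is a very abundant transcript in both groups, and its log2 fold change was 3.81 ± 0.31 (SE; limma, adjusted p = 4.26e-08). DN14186_c0_g3 was listed at 0 in all 3 libraries of ABA-100 (10.2 ℃) and had 15.5, 23.6 and 23.7 TPM in ABA-100 (-4.1 ℃), so no fold is given (limma, adjusted p = 5.56e-05). Its component holds 3 more unigenes, none of them called, and 2 of these stood at means of 43.4 and 62.6 TPM in ABA-100 (10.2 ℃), so its 0 may depend on how reads were divided among the 4.

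DN8856_c0_g1 showed the largest down-regulation. It had 82.8, 93.6 and 87.6 TPM in ABA-100 (10.2 ℃) and 0.10, 0.56 and 0.41 TPM in ABA-100 (-4.1 ℃), a log2 fold change of -6.05 ± 1.19 (SE; limma, adjusted p = 0.000944). DN8785_c0_g1, with the largest loss in TPM, had 544, 540.2 and 563 TPM at 10.2 ℃ and 61.6, 61.5 and 66.9 TPM at -4.1 ℃. Both were tightly reproduced within these 2 groups and spread widely in others, where DN8785_c0_g1 reached from 29.7 to 779 TPM within CK (-4.1 ℃) and replicate 3 stood apart from the other 2 in each of the 4 CK groups. Its log2 fold change of -3.10 therefore had a standard error of 1.03 in the fit of all libraries (limma, adjusted p = 0.0348) and of 0.04 in a fit of the 6 libraries alone (adjusted p = 2.77e-05). Its call was lost without any 1 of the 6 libraries, at adjusted p of 0.0718 to 0.0832 (limma), although the log2 fold change stayed between -3.14 and -3.08, and without the filter on low values, at 0.0518.

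**Figure D3:**
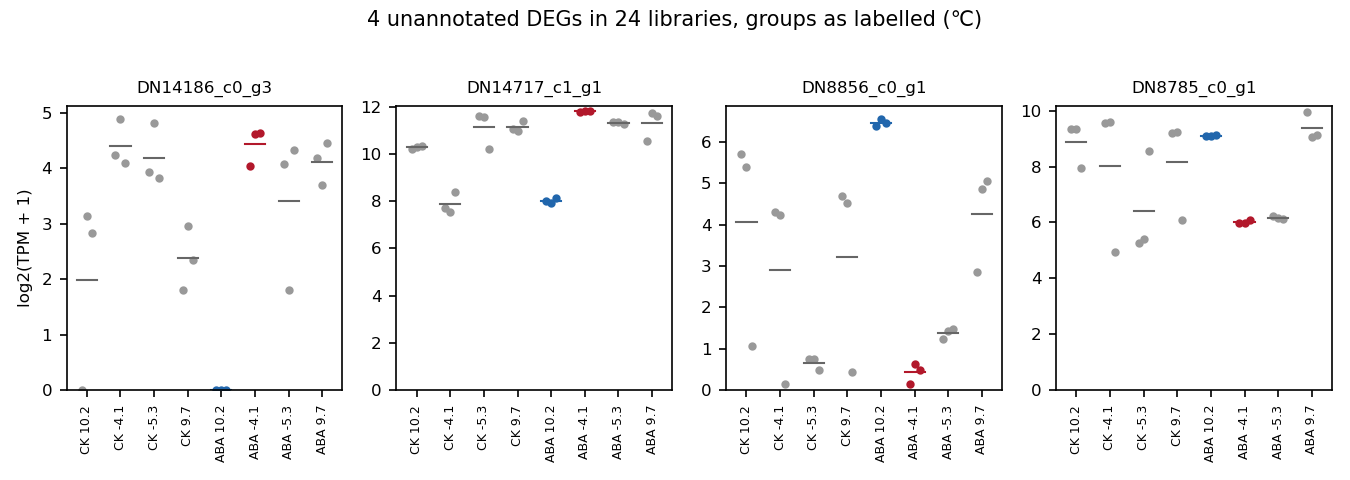
Each panel is 1 of the 4 unannotated DEGs named by size, with the 8 groups as labelled on the horizontal axis and log2(TPM + 1) on the vertical axis. Points are libraries, bars group means, blue ABA-100 (10.2 ℃), red ABA-100 (-4.1 ℃) and grey the other groups. DN8856_c0_g1 and DN8785_c0_g1 are tight in blue and red, while in every CK group 1 library stands apart for DN8785_c0_g1.

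All 4 unigenes had their extreme mean of the 8 groups in ABA-100 (-4.1 ℃), the highest for the 2 that rose and the lowest for the 2 that fell. DN14717_c1_g1 averaged 1253 ± 51.8 TPM in CK (10.2 ℃), 246 ± 82.5 in CK (-4.1 ℃), 2454 ± 1088 in CK (-5.3 ℃) and 2288 ± 374 in CK (9.7 ℃) (SD, n = 3). Its mean was 2590 ± 93.7 TPM in ABA-100 (-5.3 ℃) and 2719 ± 1054 TPM in ABA-100 (9.7 ℃). All 3 libraries of ABA-100 (-4.1 ℃) were above the 21 others, of which the highest, in ABA-100 (9.7 ℃), had 3471 TPM. The low level of ABA-100 (10.2 ℃) was close to that of CK (-4.1 ℃), and 5 of the other 6 groups had means at least 4 times as high. DN14186_c0_g3 averaged 20.8 ± 6.76 TPM in CK (-4.1 ℃) and 18.2 ± 7.87 TPM in CK (-5.3 ℃), near its 20.9 ± 4.73 TPM in ABA-100 (-4.1 ℃). DN8856_c0_g1 was also low in CK (-5.3 ℃), at 0.67, 0.69 and 0.39 TPM, and in ABA-100 (-5.3 ℃), at 1.36, 1.68 and 1.79 TPM.

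Over all DEGs, the levels in the other 6 groups differed between the up- and the down-regulated lists. The 450 up-regulated DEGs had a median level of 3.995 log2(TPM + 1) in ABA-100 (-4.1 ℃) and 2.54 in ABA-100 (10.2 ℃). The other ABA-100 groups stood at 2.51 (-5.3 ℃) and 3.36 (9.7 ℃), and the CK groups between 2.19 (10.2 ℃) and 2.71 (-5.3 ℃). Of the 450, 333 had their highest mean of the 8 groups in ABA-100 (-4.1 ℃), followed by 36 each in CK (-5.3 ℃) and ABA-100 (9.7 ℃). The 271 down-regulated DEGs had a median level of 2.63 in ABA-100 (10.2 ℃) and 0.97 in ABA-100 (-4.1 ℃), against 1.01 to 1.79 in the other groups. Their highest mean was in ABA-100 (10.2 ℃) for 199 of 271, and their lowest mean was in ABA-100 (-4.1 ℃) for 102. The choice of the lists raises these counts, since the 2 groups of the comparison set it. The median level over all unigenes tested differed much less, from 3.02 to 3.24 in the 8 groups.

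**Figure D4:**
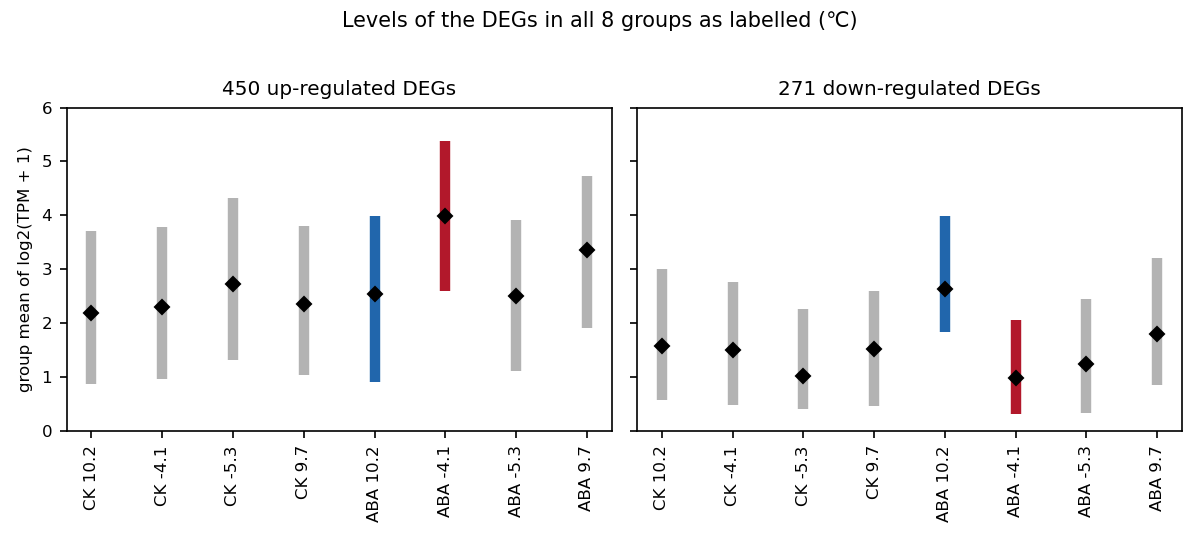
Group means in log2(TPM + 1) of the 450 up-regulated DEGs (left) and the 271 down-regulated DEGs (right) in all 8 groups as labelled, with diamonds for the median over unigenes and bars from the lower to the upper quartile. On the left ABA-100 (-4.1 ℃) (red, 3.995) and ABA-100 (9.7 ℃) (3.36) have the highest medians, and on the right ABA-100 (10.2 ℃) (blue, 2.63) has.

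The same labelled temperatures in CK gave a smaller change. Between CK (-4.1 ℃) and CK (10.2 ℃), 79 unigenes (0.367% of those tested) were called, 28 up-regulated and 51 down-regulated. Of the 721 DEGs of ABA-100, 27 were also called in CK, which is 3.74% of the former and 34.2% of the latter. Of these 27, 11 had the same direction and 16 the opposite one. The median log2 fold change in CK was 0.02 over the up-regulated DEGs of ABA-100, -0.03 over the down-regulated ones and 0.02 over all unigenes tested. None of the 12 hub unigenes was called in CK, where the lowest adjusted p was 0.0855 (limma) and log2 fold changes ran from -0.33 to 1.43.

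The difference between the change in ABA-100 and the change in CK, tested as an interaction contrast in the same fit, was called for 616 unigenes (2.86%), 405 higher and 211 lower in ABA-100. The lower count was 97 when 10 TPM were required in 3 libraries, and 354 without the library of each group least like the other 2. Of the 721 DEGs, it was called for 394 (54.6%), 269 of the 450 up-regulated and 125 of the 271 down-regulated. These counts lean on the selection of the DEGs, whose own change enters the difference. Among the hub unigenes the difference was called for 8 of 12. All 5 of MEturquoise were among them, as were the plasma membrane unigene DN7698_c0_g1 and the MAP kinase kinase kinase DN3196_c0_g1, with larger gains in ABA-100, and PAL in the opposite direction. The sphingolipid unigene DN8005_c0_g2 had a log2 difference of 1.84 ± 0.18 (SE; limma, adjusted p = 1.86e-06), made of 1.52 in ABA-100 and -0.32 in CK. PAL had a log2 difference of -2.52 ± 0.56 (SE; limma, adjusted p = 0.00543), made of -1.10 in ABA-100 and 1.43 in CK, neither of them called on its own. In a fit of these 12 libraries alone, the difference of PAL had an adjusted p of 0.0658 (limma). The log2 difference of the kinase DN3221_c0_g1, 1.04, fell under the threshold of 1 after quantile normalization (0.95), after median-of-ratios scaling (0.98), without replicate 3 of CK (10.2 ℃) (0.99) and without replicate 2 of CK (-4.1 ℃) (0.98).

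DN14717_c1_g1 moved in opposite directions under the 2 labels. It rose in ABA-100 by 3.81 on the log2 scale and changed by -2.39 in CK (limma, adjusted p = 0.000265), which gives a log2 difference of 6.20 ± 0.44 (SE; limma, adjusted p = 4.51e-08). For the down-regulated DN8856_c0_g1 and DN8785_c0_g1 the log2 differences of -4.88 and -2.24 did not pass the test (limma, adjusted p = 0.0729 and 0.407), nor did 2.02 for DN14186_c0_g3 (adjusted p = 0.2). With 1 library left out at a time, the log2 difference of DN8856_c0_g1 ran from -6.265 to -3.392 and that of DN8785_c0_g1 from -3.792 to -1.458. That of DN14186_c0_g3 ran from 1.442 to 3.012. Without replicate 3 of CK (-4.1 ℃) the log2 differences of DN8856_c0_g1 and DN8785_c0_g1 were called, at -6.26 and -3.79 (limma, adjusted p = 0.00974 and 0.0312), and without replicate 1 of CK (10.2 ℃) that of DN14186_c0_g3 was called (limma, adjusted p = 0.0114).

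**Figure D5:**
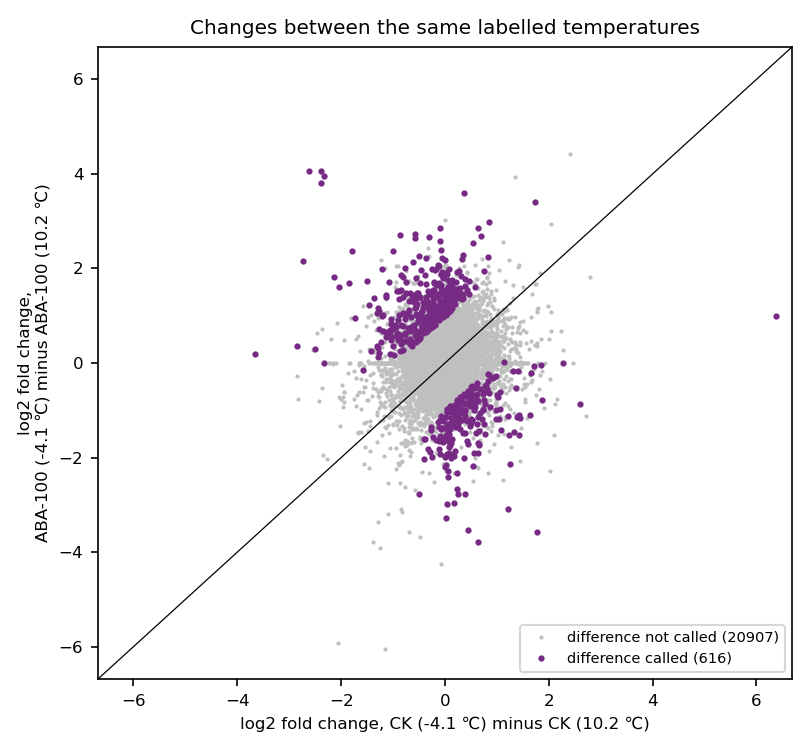
Each point is 1 of the 21523 unigenes tested, with the log2 fold change from 10.2 to -4.1 ℃ as labelled in CK on the horizontal axis and in ABA-100 on the vertical axis, and a line where both are equal. Purple marks the 616 unigenes whose difference between the 2 changes was called and grey all others, and the purple points spread mainly along the ABA-100 axis.

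On principal components of all 24 libraries, drawn from the 33255 unigenes above 0 in at least 1 library, the 2 groups were apart on the second component. PC2 took 10.2% of the variance, and its scores were -58.0, -47.1 and -69.7 in ABA-100 (10.2 ℃) and 83.6, 75.9 and 60.8 in ABA-100 (-4.1 ℃). On PC1, with 18.3% of the variance, scores were 109, 95.4 and 130 against 65.1, 56.5 and 93.2, where all 3 libraries at -4.1 ℃ were lower. The direction on PC1 depended on the scaling of unigenes, since the difference of -0.511 SD of the scores became 0.471 when unigenes were centred and not scaled, and it ran from -0.799 without replicate 3 of ABA-100 (-4.1 ℃) to -0.224 without replicate 3 of ABA-100 (10.2 ℃). In both components, with unigenes scaled, the groups did not overlap, and the two-sided exact permutation test gave p = 0.1 for each, the smallest p that 3 libraries against 3 allow.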

How the data were processed

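RNA-Seq was performed on *K. obovata* leaves in 8 groups of 3 libraries. SeqPrep and Sickle were used by the authors to trim the reads, Trinity to build unigenes de novo and RSEM to quantify them (versions not given in the sources used here). Values were deposited as TPM, which the authors scaled for transcript length and to 1 common total per library, so no counting error can be given. Groups were taken from the labels.

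From the TPM, log2(TPM + 1) of unigenes that reached 1 TPM in 3 or more libraries was fitted with limma 3.58.1 (R 4.3.3, trend, 1 mean per group, all 24 libraries). A fit on read counts was not run. DEGs had an adjusted p (Benjamini-Hochberg over all unigenes tested) of at most 0.05 and changed by more than 1 on the log2 scale. The test was tried on simulated data. Principal components were centred and scaled, and figures were drawn with matplotlib 3.10.9.

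The text names the 12 annotated hub unigenes and, in each direction, the non-overlapping DEG with the largest fold change at 10 TPM or more in the higher group and the one with the largest difference in mean TPM. These lists and the groups compared were chosen with earlier results of these data known. Names read from a volcano plot were used only as a check of the labels, and names of pathway genes, sequences and enrichments were not analysed here. Other scalings, filters, pseudocounts, thresholds, library sets and a replicate block were tried.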

Additional observations from a re-analysis of the deposited data

Results flagged for a closer look

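The change from 10.2 to -4.1 ℃ as labelled differed between ABA-100 and CK for 616 unigenes (2.86% of those tested), by the interaction contrast in limma. This difference was called for 9 of the 16 unigenes named. The study chose the hub unigenes among the 16 on these same libraries. The others were picked for their change in ABA-100, which enters the difference. Of the hub unigenes of MEturquoise, the log2 difference was 1.25 for ferrochelatase DN3958_c0_g1, 1.51 for the nuclear DN2948_c0_g1, 1.04 for the kinase DN3221_c0_g1, 1.84 for the sphingolipid unigene DN8005_c0_g2 and 1.17 for the phosphatase DN477_c0_g1. Of the others, it was 1.31 for the plasma membrane unigene DN7698_c0_g1, 1.32 for the MAP kinase kinase kinase DN3196_c0_g1 and -2.52 for PAL, DN13229_c0_g1. The call of the PAL difference was lost in 1 other setting and that of the kinase DN3221_c0_g1 in 4. The unannotated DN14717_c1_g1 had a log2 difference of 6.20, with 256, 244 and 277 TPM rising to 3555, 3681 and 3662 TPM in ABA-100, and 1203, 1248 and 1306 TPM against 212, 187 and 340.4 TPM in CK. The DN14717_c1_g1 difference held in every library of the 4 groups, since neither pair of groups overlapped. The labels disagree with the volcano plots for this pair of groups, and the part of this in the differences was not tested.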

How the results depend on the processing

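The 721 DEGs (450 up, 271 down) fell to 368 (277 up, 91 down) with at least 10 TPM required in 3 libraries and to 95 (46 up, 49 down) beyond a log2 fold change of 2. At the adjusted p alone there were 4939 (3705 up, 1234 down). Chosen after seeing the data, the same threshold with median-of-ratios scaling gave 4323 (2392 up, 1931 down) and with quantile normalization 4353 (2093 up, 2260 down), so the balance of small changes turns with the scaling. The 616 unigenes with a called difference between ABA-100 and CK became 372 at 10 TPM (97 of them lower), and without the library of each group least like the other 2, also chosen after seeing the data, 354 in place of 211 were lower. With pseudocounts of 0.1 and 0.5, 11 hub unigenes were called in place of 6, while the DEGs among all unigenes rose from 721 to 962 and 884. The PC1 difference of -0.511 SD of the scores turned to 0.471 when unigenes were centred and not scaled, and PC2 went from 2.26 to 1.75. The cause of these shifts was not tested. Leaving out 1 library at a time gave 654 to 703 DEGs (411 to 476 up, 218 to 247 down), 569 to 779 called differences (368 to 476 higher, 197 to 303 lower), 6 to 8 hub unigenes, and PC differences of -0.799 to -0.224 and 1.86 to 2.24. For the fold changes of the 16 named unigenes, the call or the lack of it was unchanged in 223 repeats. They were newly called in 24 and lost the call in 8, and none was reversed. For their differences these counts were 337, 9 and 5.

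Deviations of the same-numbered libraries of the 2 groups correlated at 0.0636, 0.109 and 0.276. Replicate 1 of ABA-100 (10.2 ℃) correlated best with replicate 2 of ABA-100 (-4.1 ℃), at 0.108, so the numbers were not taken to pair the libraries. Replicate 3 of either group correlated negatively with replicates 1 and 2 of the other, at -0.1889 to -0.1215. All pairs among replicates 1 and 2 were positive, at 0.0636 to 0.109. Deviations were taken from the mean of the same 3 libraries and cancel within each group. These signs are therefore not independent of the 0.276 between the replicates numbered 3. Whether replicate 3 shares a source between the groups was not tested. A replicate block gave 726 DEGs (450 up, 276 down) and 609 called differences, and added the call of DN8109_c0_g1 (limma, adjusted p = 0.0473) and that of the DN8856_c0_g1 difference (0.0465). With no read counts, the precision of low TPM values is unknown.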
